A study of Bos taurus with 2 samples.

Results

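The endothelial genes described here were 10 genes of the cells that line blood vessels, chosen by name from the genes on a bovine expression array. They were the transcription factor genes SOX18 and SOX17, the receptor genes KDR, FLT1, TEK and TIE1, the surface and junction genes PECAM1, CDH5 and SELE, and VWF. A probe belonged to a member when the gene name in the files, or the current symbol of its RefSeq accession, was one of these names. All 10 had a probe, 23 probes in all, among 17373 named genes with a probe on the array. The samples were mammary tissue of adult female Chinese Holstein cows in late lactation, with 1 array labelled mastitis and 1 labelled normal. The series states 3 cows per group, and the methods speak of specimens hybridised singly without saying which cow lies behind each array. By the study's methods antibiotics were used in the cows with clinical mastitis alone, so that effects of the disease and of its treatment cannot be told apart, and neither group had been given recombinant somatotropin. With 1 array per condition no difference below has a replicate check and no test could be run.

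Endothelial cells form the inner wall of blood and lymph vessels and set which molecules and cells pass into the tissue. Vascular endothelial growth factors act through the receptors KDR and FLT1, angiopoietins act through TEK with TIE1 as its partner, and SOX17 and SOX18 are related factors that direct vessel formation. Cadherins and PECAM1 hold neighbouring cells together, while selectins on inflamed endothelium catch passing white blood cells. In the lactating udder a dense bed of capillaries surrounds the secretory alveoli and supplies the substrates of milk.

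Values were net signals, the spot intensity minus the mean of the negative controls, as the authors' scanner software gave them. Well above background here means a net signal over 7.10 on the mastitis array or 8.74 on the normal array, which is 2.6 SD above the mean of the 153 negative control spots, at a spot that the software had found. To scale them, the signals of an array were divided by their 75th percentile, 210 for mastitis and 128 for normal. A ratio is mastitis over normal after this scaling, averaged on the log2 scale over the probes of a gene that were well above background on both arrays. For 12473 measured genes the median log2 ratio was -0.15. Log2 ratios of different probes of a gene varied with a pooled SD of 0.44 and those of replicate spots of a probe with 0.17, both of them technical. The scaling decides where 0 lies. Before it, the median log2 ratio of all genes was 0.57, and with the spike-in probes it was 0.09, so the members are also given relative to that median, which the choice of scaling factor leaves as it is. As the tissue was measured in bulk, fewer cells of a type and less RNA per cell cannot be told apart.

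Of the 23 probes, 17 were well above background on both arrays, 4 on neither, 1 on the mastitis array alone and 1 on the normal array alone. No member probe had saturated pixels. In this way 9 of the 10 members were measured, and 5 of the 9 rested on a single measured probe. FLT1, a receptor that binds vascular endothelial growth factor, was not well above background on either array. Its 2 probes had net signals of 6 and 7 on the mastitis array and 2 and 4 on the normal array. The other 9 members passed the threshold on both arrays, so RNA of endothelial genes was detected in both tissues. For SELE and TIE1 this was not firm in the normal tissue. There the signal-to-noise score of the scanner software was 0.19 for the SELE probe and 1.09 for the TIE1 probe, beside 0.2 and 0.25 for the FLT1 probes.

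**Figure D1:**
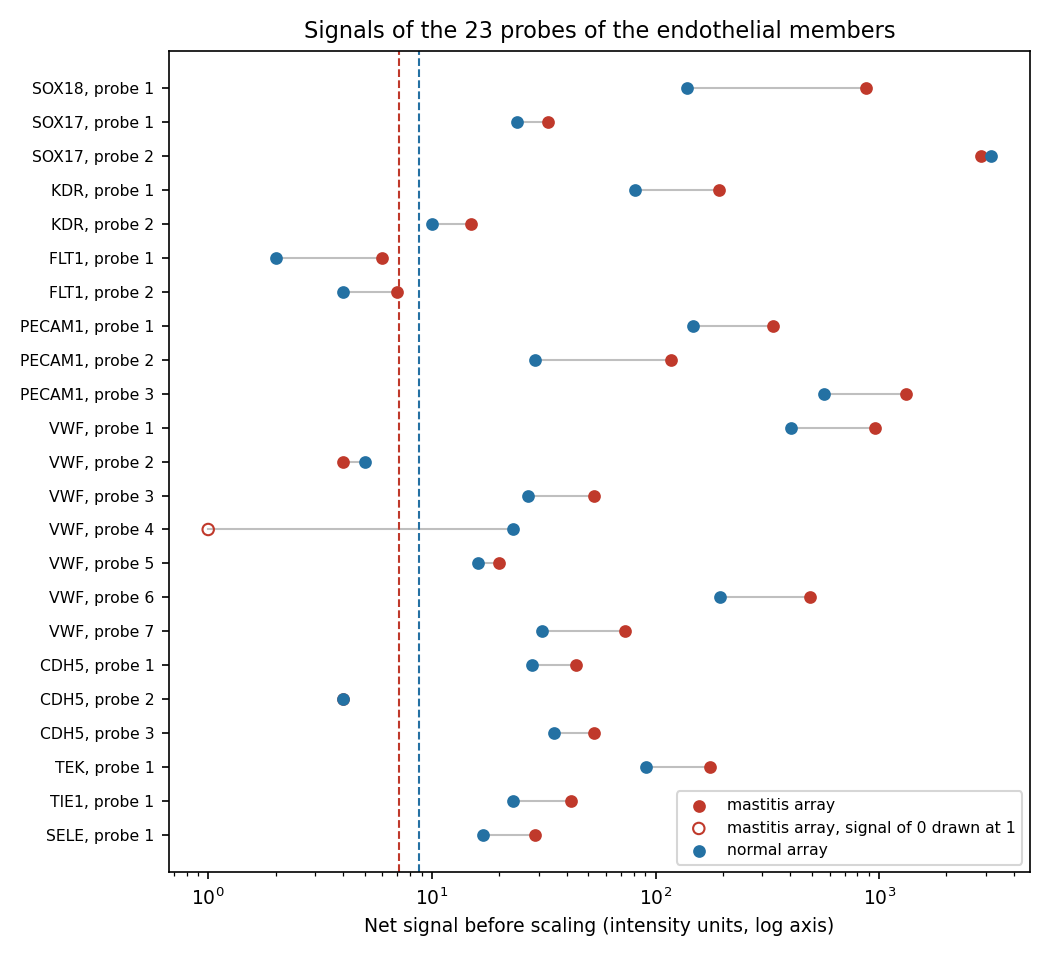
Net signal before scaling (horizontal log axis, intensity units) of each of the 23 member probes on the mastitis array (red) and the normal array (blue). Dashed lines mark the net signals of 7.10 (mastitis, red) and 8.74 (normal, blue) above which a spot counted as well above background, the open symbol stands for a signal of 0, and the points of the second CDH5 probe lie on top of each other at 4. Before scaling, 16 of the 17 probes measured on both arrays were brighter on the mastitis array, with the bright SOX17 probe (2841 against 3151) as the exception. The mastitis array was brighter as a whole, with an unscaled median log2 ratio of 0.57 over all genes. After scaling, 12 of the 17 probes had a log2 ratio above 0.

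SOX18 was the member that differed most, and most others lay close to the bulk of the genes. Of the 9 measured members, 1 was higher with mastitis by 2-fold or more, against 2.30% of all measured genes. None was lower by 2-fold or more, against 9.12% of all measured genes. The median log2 ratio of the members was 0.23, and 8 of the 9 lay above the median of all genes. A log2 ratio above 0 was found for 7 of 9 members and for 38.9% of all measured genes. In order from high to low the log2 ratios were those of SOX18, PECAM1, KDR, VWF, TEK, TIE1, SELE, CDH5 and SOX17. Neighbours in this order from PECAM1 down to SOX17 differed by about the SD of 0.44 over probes or by less, so their order is not firm. SOX18 stood 1.18 above PECAM1 on the log2 scale, a wider gap than any between neighbours further down the order.

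**Figure D2:**
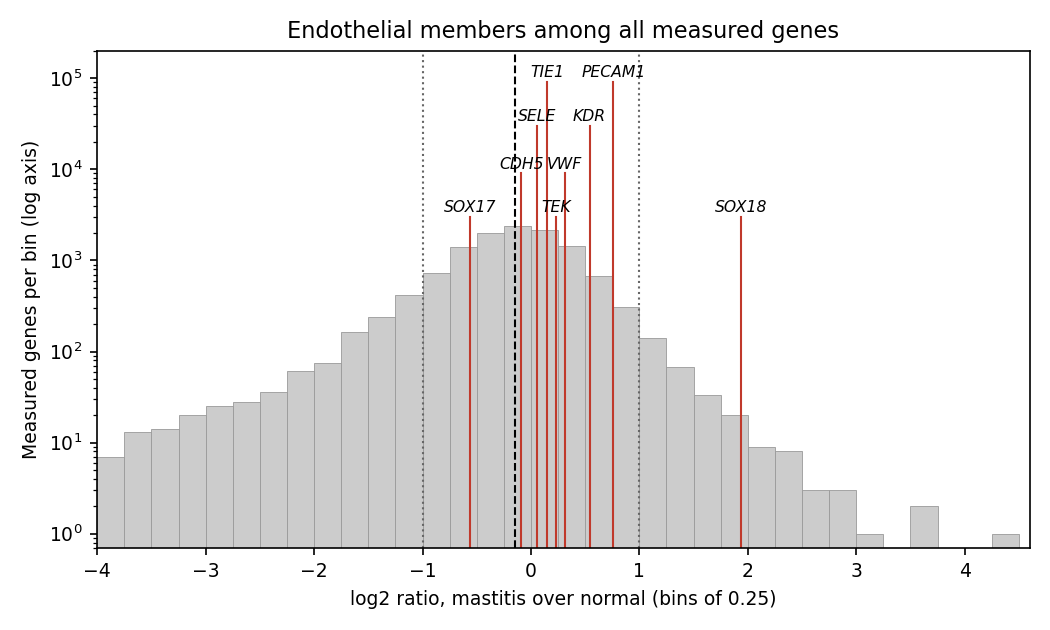
Number of measured genes (vertical log axis) by log2 ratio of mastitis over normal in bins of 0.25 (horizontal axis), with red lines at the 9 measured members. A dashed line stands at the median of the 12473 genes (-0.15), dotted lines stand at 2-fold, and 38 genes below -4 are not drawn. SOX18 at 1.94 is the single member outside the dotted lines, and the others lie between -0.56 and 0.76.

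The 2 transcription factor genes of the same family differed in direction. SOX18, which acts in vessel formation and in the start of lymphatic endothelium, read 874 with mastitis against 139 in the normal tissue, as net signals. After scaling these were 4.16 and 1.09 times the 75th percentile. Its single probe was thus 3.83-fold brighter on the mastitis array, a log2 ratio of 1.94. Moving each signal by 2 SD of the negative controls in opposite directions left this ratio between 1.88 and 2.0. Such a range holds background noise alone, and not the larger spread of replicate spots (SD 0.17) or of probes of a gene (SD 0.44). The signal-to-noise score of the spot in the scanner software was 122 with mastitis and 19.4 in the normal tissue. Only 33 of the 12473 measured genes, or 0.265%, had a log2 ratio at or above that of SOX18. No second probe for SOX18 was there to compare.

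SOX17, a close relative of SOX18 that is known for arterial endothelium, had a log2 ratio of -0.56 (SD 0.43, 2 probes), a level 1.47-fold lower on the mastitis array, which turned to 0.16 without scaling. Its bright probe read 2841 with mastitis and 3151 in the normal tissue, a log2 ratio of -0.86. Its dim probe had 33 and 24, a log2 ratio of -0.25 that lay between -0.80 and 0.32 when the signals were moved by 2 SD of the negative controls. Both probes were below the median of all genes, and they differed in size by about the spread usual for probes of a gene. The log2 ratio of SOX18 exceeded that of SOX17 by 2.50, a difference that no scaling factor can change. SOX7, the remaining member of this group of factors, was not well above background on either array.

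**Figure D3:**
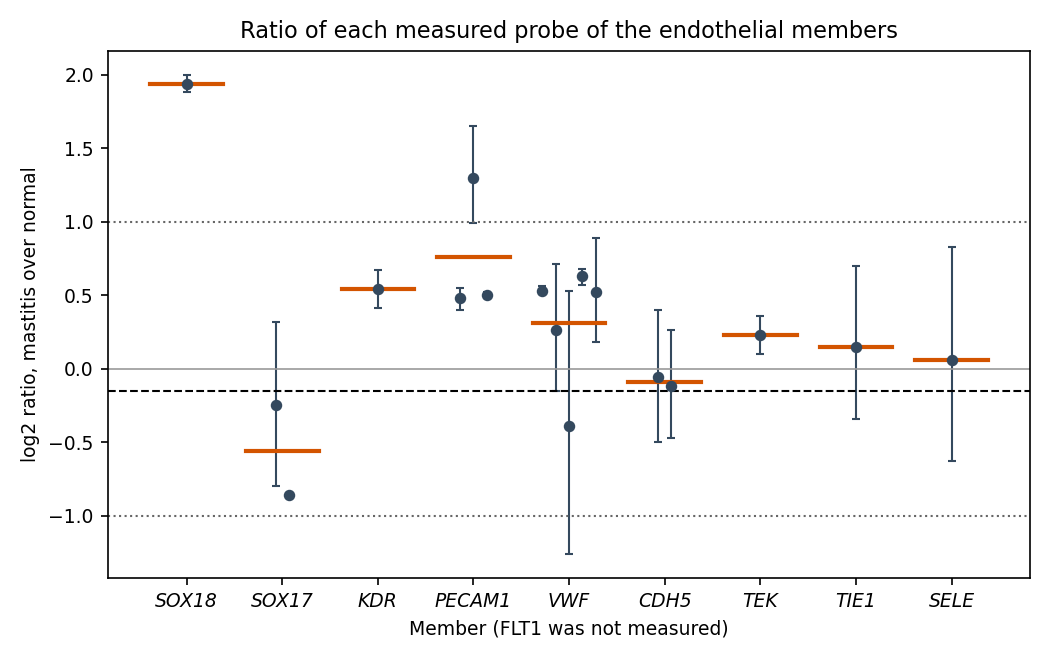
Log2 ratio of mastitis over normal (vertical axis) of the 17 probes measured on both arrays, grouped by member. Points are probes, their bars show the range when both signals were moved by 2 SD of the negative controls in opposite directions, orange lines are means over the probes of a gene, a dashed line stands at the median over all genes (-0.15) and dotted lines stand at 2-fold. The bars leave out the spread between replicate spots and between probes. The SOX18 probe and 1 PECAM1 probe lie above the upper dotted line, and the bars of TIE1, SELE and both CDH5 probes cross 0, as do those of 3 dim SOX17 and VWF probes.

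Among the receptors, KDR was somewhat higher on the mastitis array and the others differed little. KDR, the main signalling receptor of vascular endothelial growth factor, had net signals of 193 and 81 at its measured probe on the mastitis and normal arrays, and a log2 ratio of 0.54 (range 0.41 to 0.67 with the noise of the negative controls). A second KDR probe read 15 with mastitis and 10 in the normal tissue, where the software had not found the spot, and gives no fold. With that spot kept, KDR was at 0.20. TEK, the receptor of angiopoietins, had net signals of 175 and 91 and a log2 ratio of 0.23 (range 0.10 to 0.36). Its partner TIE1, which modulates TEK, had net signals of 42 and 23 and a log2 ratio of 0.15 that turned to -0.20 with the normexp background correction. That correction adds an offset of 50 to every signal, so ratios of dim probes move towards a common value below 0 by construction. For TIE1 the noise of the negative controls alone allowed values between -0.34 and 0.70. Single probes lay behind all of these receptor values, and none of them reached 2-fold.

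PECAM1, an adhesion molecule of endothelial junctions that platelets and white blood cells also carry, was the second highest member. Its log2 ratio was 0.76 (SD 0.47, 3 probes), a 1.69-fold higher level on the mastitis array, and 4.62% of all genes had a ratio as high or higher. The net signals of its probes were 1314 against 566, 336 against 147 and 117 against 29, each brighter on the mastitis array. The probes named by the RefSeq accession gave log2 ratios of 0.50 and 0.48. The third, named by an older sequence record, gave 1.30 and was the dimmest on the normal array. With the brightest probe alone PECAM1 was at 0.50, and without scaling it was 2.78-fold higher. Of the leukocyte markers, 8 of 10 were measured, and MPO was not well above background on either array. The measured 8 had a summed scaled signal of 28.5 with mastitis and 25.9 in the normal tissue, a sum in which bright genes weigh most. Their median log2 ratio was -0.12, and 4 of the 8 were above 0. Of the platelet markers, PF4 and PPBP were not well above background on either, and the 3 measured ones summed to 1.46 and 1.53. Their part in the PECAM1 value was not tested.

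VWF, the large clotting protein that endothelial cells store and release, was measured by more probes than any other member. Of its 7 probes, 5 were measured on both arrays, with a mean log2 ratio of 0.31 (SD 0.42). The brightest read 956 with mastitis and 403 in the normal tissue, a log2 ratio of 0.53. The next had 491 and 194 and a log2 ratio of 0.63. Those with 73 and 31 and with 53 and 27 gave 0.52 and 0.26. The dimmest of the 5, with 20 and 16, gave -0.39, and the noise of the negative controls allowed it values between -1.26 and 0.53. A sixth probe read 0 with mastitis and 23 in the normal tissue, at least 4.72-fold lower with mastitis, against the direction of the bright probes. The seventh, at 4 and 5, was not well above background on either. When dim probes were kept, signals below 1 were set to 1, so the sixth probe weighed most and the mean of VWF turned to -0.68. With probes of net signal 50 or more on each array the mean was 0.58.

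The junction gene CDH5 and the selectin gene SELE differed by less than the noise of their dim probes. CDH5 encodes the cadherin of endothelial junctions. Its measured probes read 44 against 28 and 53 against 35, with log2 ratios of -0.06 and -0.12, and the third, at 4 on each array, was not well above background. The mean of -0.09 (SD 0.04, 2 probes) was 0.06 above the median of all genes, and it lay above 0 under 6 of 15 other ways of processing, with 0.15 under spike-in scaling. SELE, a selectin that endothelial cells make when inflammatory cytokines act on them, read 29 with mastitis and 17 in the normal tissue. Its log2 ratio was 0.06, and -0.29 with the normexp correction, whose offset moves dim probes towards a value below 0 by construction. Moving the signals by 2 SD of the negative controls gave values between -0.63 and 0.83 for SELE, so a difference of up to 1.5-fold in either direction was not detectable at this signal.

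The other endothelial cell genes, a list of 31, showed a picture close to that of the members without SOX18. Of the 28 that were measured, none was at least 2-fold higher and none at least 2-fold lower, against 2.30% and 9.12% of all measured genes. Of the 28, 23 lay above the median of all genes. Their median log2 ratio was 0.22, and they ranged from -0.78 to 0.87. At the upper end stood PLVAP, which forms the diaphragms of fenestrated capillaries, with 0.87 (SD 0.10, 3 probes), the surface sialomucin gene CD34 with 0.83 from 1 measured probe (0.06 without the filter on dim probes) and the transcription factor gene FLI1 with 0.67 from 1 probe. At the lower end stood TAL1, a transcription factor gene of blood and endothelium, with -0.78 from 1 measured probe whose net signals were 46 and 48, and -1.54 without the filter on dim probes. None of the 28 reached the log2 ratio of 1.94 that SOX18 had.

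Ligands of KDR and FLT1 were within 2-fold and went both ways. Among vascular endothelial growth factors and their other receptors 7 genes were measured and all were within 2-fold, with a median log2 ratio of 0.24 that turned to -0.03 with normexp, -0.07 without the filter on dim probes and -0.40 with spot means. VEGFA, the main ligand of KDR, had a log2 ratio of -0.43 (SD 0.09, 3 probes) and was above 0 without scaling alone, at 0.29. VEGFB and PGF, ligands of FLT1, had 0.71 (SD 0.30, 4 probes) and 0.79 (1 probe), and PGF was at -0.07 without the filter on dim probes. VEGFD and the co-receptor gene NRP2 had -0.71 and -0.59, each from 1 probe with net signals of 17 or less, and VEGFD was at -0.08 with normexp and quantile normalization.

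Of 9 measured genes of angiopoietins, their relatives and partners of TEK, 2 were higher with mastitis by 2-fold or more and none was lower by as much. Of all measured genes, 2.30% were higher and 9.12% lower by this threshold. ANGPTL2, a secreted relative of the angiopoietins, was 2.51-fold higher (SD of the log2 ratio 0.40, 2 probes), and ANGPTL1 was 2.13-fold higher from a single probe with net signals of 42 and 12. With the normexp correction these were 1.68-fold and 1.02-fold. ANGPT2, an angiopoietin that endothelial cells store and that can oppose signalling through TEK, had a log2 ratio of 0.75 (SD 0.09, 2 probes) and 0.15 with normexp, and the adapter gene DOK2 had 0.56. ANGPT1, the agonist of TEK, had -0.21 with probes that differed widely (SD 0.72, 2 probes), and its sign was the opposite under 10 of 16 other ways of processing.

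Genes that serve beside SELE in the capture of white blood cells were all within 2-fold. There were 11 of them measured, with a median log2 ratio of 0.18, or -0.11 without the filter on dim probes. SELP, the selectin that endothelial cells and platelets keep in store, had a log2 ratio of 0.43, and ICAM1, an integrin ligand, had 0.48, each from 1 probe. ICAM1 turned to -0.71 without the filter on dim probes. VCAM1, a further adhesion molecule of inflamed endothelium, had 0.27 (SD 0.06, 2 probes). On the side of the white blood cells the values went both ways. The selectin ligand gene SELPLG, the highest of these genes, had 0.66 (SD 0.30, 2 probes) and 0.19 with normexp. ITGB2 had 0.18 (SD 0.41, 5 probes), ITGAL -0.43 (SD 0.86, 2 probes) and CD44 -0.29 (1 probe). MADCAM1, an adhesion molecule of gut vessels, had -0.54, or 0.18 without scaling. ITGA4 and FUT7 were well above background on 1 array only, with net signals of 12 or less.

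Of 11 measured partners of the endothelial junction, 2 were higher and 1 was lower with mastitis by 2-fold or more, against 2.30% and 9.12% of all measured genes. The median log2 ratio of these partners was 0.23. CD99, a surface protein that white blood cells use in crossing the vessel wall, was 2.38-fold higher (SD of the log2 ratio 0.39, 2 probes) and stayed at least 2-fold higher under all 16 other ways of processing that exclude the misplaced rows of the deposited table. The junction gene JAM3 was 2.01-fold higher (SD 0.06, 2 probes) and 1.64-fold with the normexp correction. F11R, which epithelial cells also express, was 2.13-fold lower with probes that disagreed (SD 1.11, 3 probes). It was 1.82-fold lower with normexp, 4.84-fold lower by its brightest probe and at least 2-fold lower under 9 of 16 other ways of processing. CTNNB1, the catenin that binds CDH5, had a log2 ratio of 0.33 (SD 0.42, 4 probes).

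Of 7 measured genes of arterial, venous and Notch identity, none was 2-fold apart, with a median log2 ratio of 0.46, or -0.34 without the filter on dim probes. The Notch ligand gene DLL4 of arterial endothelium had 0.95 from 1 measured probe and turned to -1.82 without the filter on dim probes. NR2F2, a factor of venous identity, had 0.64 (SD 0.19, 4 probes), JAG1 had 0.47 and NOTCH1 had -0.71 from a probe with a net signal of 9 on both arrays, and -0.08 with quantile normalization. Of 4 measured partners of VWF, 2 were at least 2-fold lower, against 9.12% of all measured genes. GP1BA, the platelet receptor of VWF, was 12.7-fold lower from 1 probe that read 12 with mastitis and 93 in the normal tissue, and 3.16-fold lower with normexp. STAB2, a scavenger receptor of sinusoidal endothelium, was 2.46-fold lower from a probe near the background (8 and 12), and 1.51-fold lower with normexp. It was at least 2-fold lower under 8 of 14 other ways of processing. F8, the clotting factor that VWF carries, had a log2 ratio of 0.03 (SD 0.08, 2 probes) and STXBP5 had -0.10, and these values changed sign under 4 of 16 and 7 of 14 other ways of processing, with F8 at -1.21 without the filter on dim probes.

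Markers of lymphatic endothelium stood further apart than those of blood vessels and went both ways. Of 6 measured, 2 were higher and 1 was lower with mastitis by 2-fold or more, against 2.30% and 9.12% of all measured genes. PDPN, a surface glycoprotein of lymphatic endothelium that fibroblasts and basal epithelial cells also make, was 4.05-fold higher (SD of the log2 ratio 0.02, 2 probes), with median net signals of 370 and 56. LYVE1, a hyaluronan receptor of lymphatic endothelium and of some macrophages, was 2.81-fold higher (SD 0.02, 2 probes). CCL21, the chemokine that draws immune cells into lymph vessels, was 2.07-fold lower (SD 0.01, 2 probes). PROX1, the factor that defines lymphatic identity and acts after SOX18, was at -0.92 on the log2 scale (SD 0.29, 2 probes), from dim probes with median net signals of 14.5 and 16.5, and at -0.11 with normexp and quantile normalization. PDPN and LYVE1 thus lay above 0 and PROX1 below it. PROX1 passed 2-fold under 0 of 15 other ways of processing, and its dim probes leave its direction unsure. The remaining markers STAB1 and RELN had log2 ratios of 0.76 (2 probes) and 0.11 (4 probes). With normexp PDPN was 2.38-fold and LYVE1 1.63-fold higher and CCL21 1.70-fold lower, and with spike-in scaling CCL21 was within 2-fold.

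**Figure D4:**
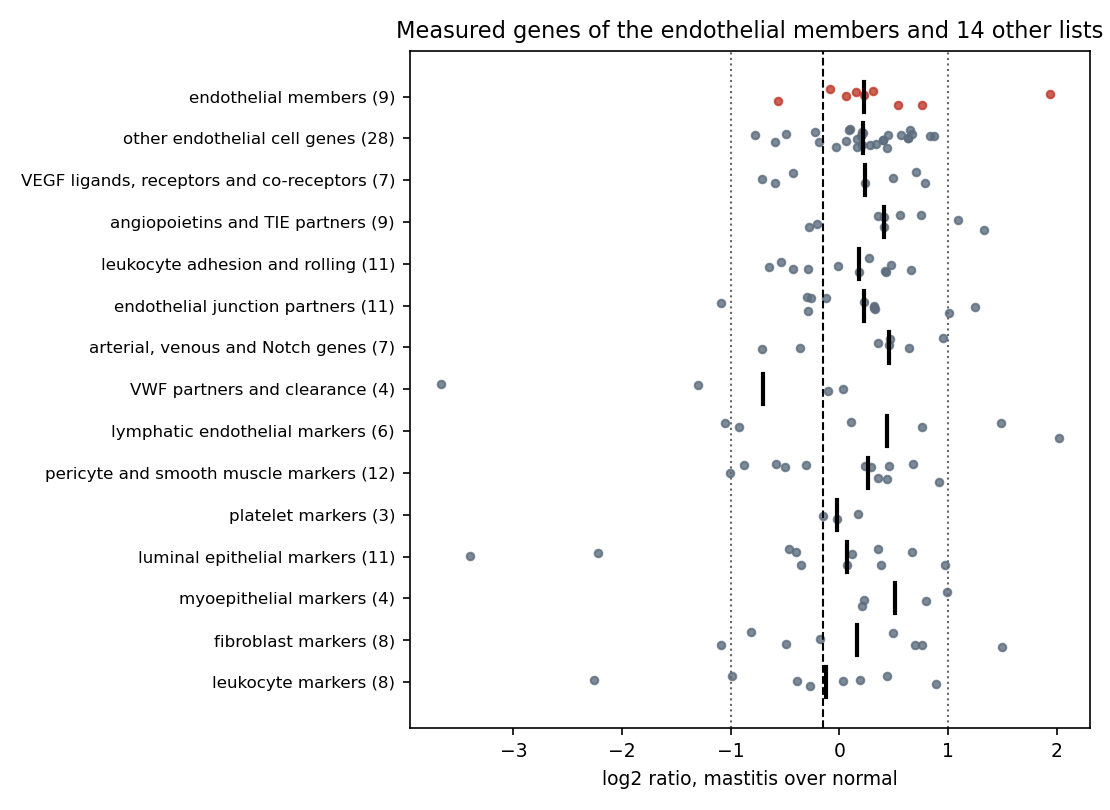
Log2 ratio of mastitis over normal (horizontal axis) of each measured gene in the endothelial members (red) and 14 other lists (grey), with the number of measured genes in brackets. Each point is a gene, moved up or down at random to be visible, a solid bar stands at the median of a list, the dashed line at that over all genes (-0.15) and the dotted lines at 2-fold. The members' median of 0.23 lies beside those of the other endothelial genes (0.22), pericyte markers (0.26) and fibroblast markers (0.16).

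Markers of the cells that lie around or beside the endothelium had list medians from -0.12 to 0.51, with that of the members between them. The median log2 ratio was 0.26 over 12 pericyte and smooth muscle markers, 0.16 over 8 fibroblast markers and 0.51 over 4 myoepithelial markers. Over 11 luminal epithelial markers it was 0.07, over 3 platelet markers -0.02 and over 8 leukocyte markers -0.12. Among pericyte markers CNN1 was 2.01-fold lower (SD 0.75, 2 probes) and within 2-fold with normexp. It was at least 2-fold lower under only 5 of 16 other ways of processing. PDGFRB, the receptor that recruits pericytes, had 0.92 (SD 0.44, 2 probes) and -0.05 with normexp, KCNJ8 -0.88 and NOTCH3 0.68. Among fibroblast markers FBLN1 was 2.82-fold higher, and COL1A1 and DCN had log2 ratios of -0.81 and 0.76. COL3A1 was 2.13-fold lower but 1.86-fold lower with normexp, and at least 2-fold lower under 9 of 16 other ways of processing. The mastitis array thus held no common direction for stromal genes.

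RNA of luminal epithelial genes was detected on both arrays. All 11 luminal markers were measured, with EPCAM at a log2 ratio of 0.12 (SD 0.16, 2 probes) and KRT18 at 0.97 (SD 0.13, 3 probes). MUC1, a mucin of the milk fat globule, was 10.6-fold lower (SD 1.03, 5 probes), 4.44-fold lower with normexp and 21.7-fold lower by its brightest probe, and the alveolar factor gene ELF5 was 4.65-fold lower on the mastitis array. The summed scaled signal of the luminal list was 91.9 with mastitis and 145 in the normal tissue. Bright genes weigh most in this sum, and the list as a whole did not share its direction, with a median log2 ratio of 0.07 and 6 of 11 genes above 0. Whether the share of secretory RNA differed, and any part of it in the members' ratios, was not tested. Of the leukocyte markers, CSF3R, a receptor of neutrophils, was 4.80-fold lower from 1 dim probe, or 2.32-fold lower with normexp and within 2-fold under 1 of 15 other ways of processing, CD2 had a log2 ratio of -0.99, and the macrophage genes CSF1R and CD68 had 0.89 and 0.44, with CSF1R at 1.62 without the filter on dim probes. Among myoepithelial markers the keratin genes KRT5, KRT17 and KRT14 had 0.99, 0.80 and 0.21 and OXTR, the oxytocin receptor of milk ejection, had 0.23, with KRT14 at -0.38 and KRT17 at 1.65 by the brightest probe. CLDN4, a claudin of epithelial tight junctions, had 0.67. The platelet integrin genes ITGB3 and ITGA2B had 0.17 and -0.02 and TREML1 had -0.15, values that turned to -0.12 with normexp for ITGB3 and to 0.22 and 0.09 with spike-in scaling for ITGA2B and TREML1, and TREML1 was at -1.22 without the filter on dim probes.

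The place of the members relative to all genes held under most other ways of processing. SOX18 was at least 2-fold higher under all 16 of them, between 3.25-fold with normexp together with quantile normalization and 6.29-fold without scaling. Settings that only filter or choose probes could not move its single bright probe from 1.94, and a change of the scaling factor shifts all genes alike. Such settings are therefore no check on SOX18. Of the other members, KDR, PECAM1 and VWF passed 2-fold without scaling, and PECAM1 lay at the threshold, just short of it, with spike-in scaling. The members' median stayed above the median of all genes under all 16, by between 0.17 and 0.56 on the log2 scale. The number of members above the median was 8 of 9 here and 5 of 9 with the normexp correction, with which CDH5, TIE1 and SELE lay at or below it. It was 7 of 9 with the brightest probe or with spot means. With a net signal of at least 50 it was 5 of 6, and without the filter on dim probes 8 of 10.

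**Figure D5:**
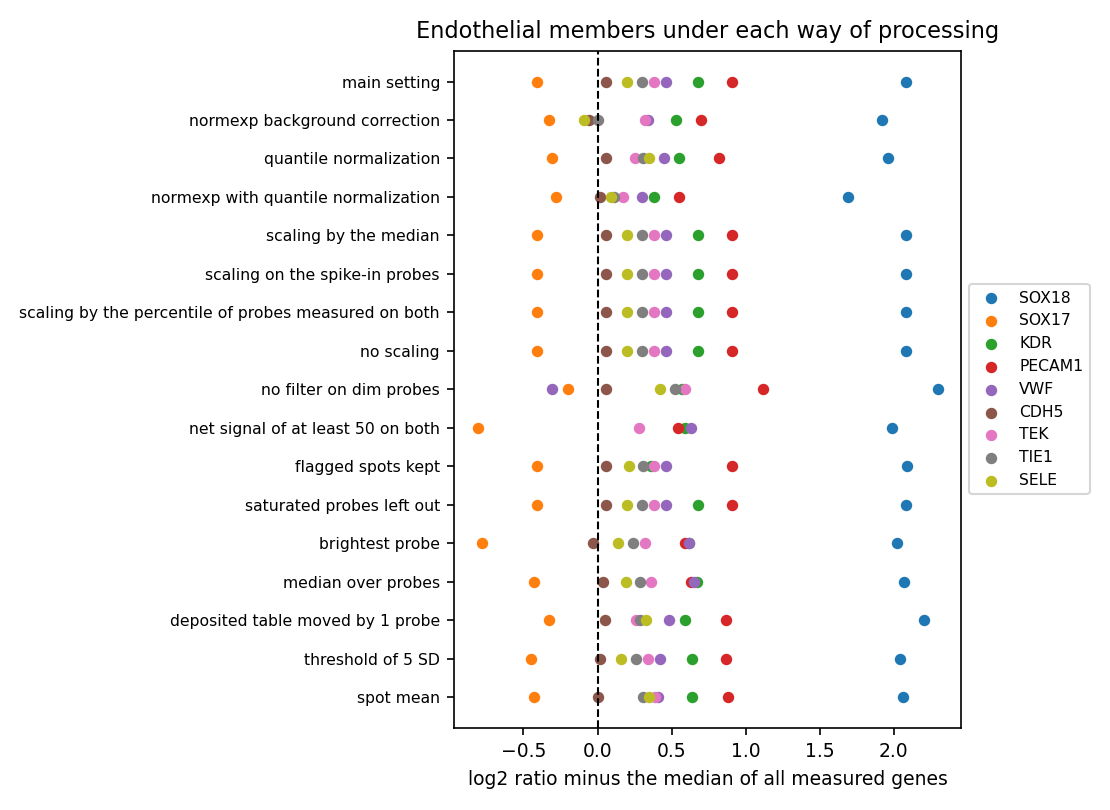
Log2 ratio of each measured member minus the median of all measured genes (horizontal axis) under the main setting and 16 other ways of processing (rows), with 1 colour per gene. SOX18 stays at the far right in every row, SOX17 stays left of the dashed line at 0 in every row, and VWF moves left of that line when dim probes are kept. TIE1, SELE and CDH5 have no value where a net signal of at least 50 was required.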

How the data were processed

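RNA of mammary tissue was hybridised to 2 arrays, 1 for each condition, in a series that gives 3 cows per group. The file headers name an Agilent bovine array of design 023647, read at 532 nm with GenePix Pro 6.1 and not normalized. Feature Extraction, which the submitters' notes name, and the Affymetrix chip of the methods have other layouts. The authors deposited, per spot, the intensity less the mean signal of the negative controls, the saturated pixels in percent, a flag, and a score of signal to noise. The authors' deposited table of log2 values (medians 4.34 and 4.29) has no stated method. Its scale and direction were set against the scanner files, its rows are displaced by 1 probe (Spearman correlation 0.10 with the named probe and 1.00 with the next), and its centring stays unknown. It served as an alternative only.

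Control spots were left out, and spots of a probe were averaged. Of 43653 probes, 28557 were named by RefSeq accession, 5115 by symbol and 148 by synonym through a RefSeq gene table (assembly ARS-UCD2.0), 1379 kept the files' name and 8454 had none. Both arrays share a slide and a scan. Normexp used limma 3.58.1 in R 4.3.3 with an offset of 50, and the rest Python 3.11.15 with pandas 2.3.3, numpy 2.4.6, matplotlib 3.10.9 and scipy 1.17.1. The scripts were tested on simulated data. Precision is limited by 1 array per condition. Without the filter on dim probes, net signals below 1 were set to 1, so ratios from such probes depend on that floor. The members and the 14 other lists, written from textbook knowledge, were chosen with earlier results of these data known. Named genes were all members and, of each other list, those at least 2-fold apart, filled up to 4 by the largest ratios (8 at most), with 6 ligands and relatives of members (VEGFA, ANGPT1, ANGPT2, SELP, ICAM1 and VCAM1) always. The values of 1 gene that this rule named are not reported here. For a probe well above background on 1 array, the bound sets it against the higher of its own signal and the lowest one well above background on the other array. No probe sequences were printed, as the tables used here hold none.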

Additional observations from a re-analysis of the deposited data

How the results depend on the processing

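No paired analysis was possible because each condition has 1 array. The alternatives were those fixed with the design, plus the spot mean in place of the spot median, which was chosen after seeing the data. Over 16 alternatives and the 9 measured members, 131 of 141 log2 ratios moved by less than the SD of 0.44 over probes. Settings that only filter or choose probes could not move a member with a single bright probe, such as SOX18. The deposited table read at the probe it names is kept apart, since its rows are displaced. Read that way, 8 named genes that were 2-fold apart changed direction on the log2 scale, to -0.39 for ANGPTL2, -0.69 for ANGPTL1, -0.27 for CD99, 0.80 for F11R, -0.46 for LYVE1, 0.53 for CCL21, 0.81 for MUC1 and 1.25 for COL3A1. The count of 1 member at least 2-fold higher was 4 without scaling, 2 with the deposited table as named and 2 at a 1.5-fold threshold, and it was the same under the others. The count of 0 members at least 2-fold lower was the same throughout. The members' median of 0.23 was 0.94 without scaling. Over the other lists together, 7 of 129 genes were at least 2-fold higher, against 2.30% of all measured genes. This count was 3 with normexp, 4 with normexp and quantile normalization, 11 with quantile normalization or the brightest probe, 13 with median scaling, 17 with spike-in scaling, 57 without scaling, 14 with the deposited table read either way, 29 at 1.5-fold and 1 at 3-fold. Genes of these lists lower by 2-fold or more numbered 9 of 129, against 9.12% of all measured genes. Their number was 3 with normexp and quantile normalization, 4 with normexp, without scaling or at 3-fold, 5 with quantile normalization, median or spike-in scaling or a net signal of at least 50, 20 without the filter on dim probes and 19 at 1.5-fold. The median of 0.21 over the other lists together was 0.92 without scaling. Among all genes 287 were higher and 1137 lower by 2-fold or more, with extremes of 95 and 409 with normexp, 2525 and 331 without scaling, and 475 and 4147 without the filter. The cause of these changes was not tested beyond what each setting does by construction. Probes with net signals below about 50, those of CDH5, TIE1 and SELE among them, limit what can be seen for these genes.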
